A study of Mus musculus with 16 samples.

Results

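The receptor gene Cnr1 and 7 genes for enzymes that make or break down its lipid ligands (Dagla, Daglb, Mgll, Abhd6, Abhd12, Napepld and Faah) were followed in the medial prefrontal cortex (mPFC) of the mouse. They were picked by gene symbol, and all 8 were found among the 26625 entries of the count table, of which 19415 are annotated genes and the others are loci assembled from the reads. The study asked how the histone demethylase gene Kdm7a bears on transcription in the mPFC after morphine, and read full-length cDNA of bulk tissue on a Nanopore sequencer, where 1 read stands for 1 amplified cDNA copy. All animals were male C57BL/6 mice of 8 to 10 weeks that had received an adeno-associated virus in the mPFC before place conditioning, in which a chamber is paired with the drug.

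Ctrl + Saline (3 mice) and Ctrl + Morphine (4 mice) carried a virus with a negative control short hairpin RNA (shRNA). Kdm7a-shRNA + Saline (5 mice) and Kdm7a-shRNA + Morphine (4 mice) carried the hairpin against Kdm7a. Conditioning took 10 days, the morphine dose was 10 mg/kg, and the mPFC of all groups was taken on day 17, which was day 7 of withdrawal. The hairpin was driven by the U6 promoter and the EGFP reporter by the CMV promoter, neither of which is restricted to a cell type. The labels number the libraries in each group without saying that each came from a separate animal. Each library is called a mouse here, and p-values measure the spread between libraries, which may be technical. Total counts ran from 6596991 to 12418112 per mouse.

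Endocannabinoids are lipid messengers that neurons make on demand. In the classical scheme 2-arachidonoylglycerol (2-AG), made by the diacylglycerol lipases, leaves the postsynaptic cell and acts on the presynaptic receptor encoded by Cnr1, which lowers transmitter release. In the cortex Cnr1 is known above all from the terminals of Cck-containing interneurons and, at lower density, from pyramidal neurons, while Daglb and Abhd12 are also known from microglia.

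Kdm7a itself was read first, since as the target of the hairpin it checks the virus labels. In normalized CPM (counts scaled to a common library total, corrected with edgeR's TMM factor), Kdm7a was 9.78, 9.08 and 9.41 in Ctrl + Saline, and 5.74, 4.95, 6.04, 6.07 and 4.92 in Kdm7a-shRNA + Saline. It was 7.79, 6.19, 8.89 and 8.02 in Ctrl + Morphine, and 6.28, 4.44, 3.01 and 6.04 in Kdm7a-shRNA + Morphine. All 5 knockdown mice under saline lay below every Ctrl + Saline mouse, and under morphine 3 of 4 lay below every Ctrl + Morphine mouse. A gene was called where edgeR's quasi-likelihood test gave a Benjamini-Hochberg adjusted p under 0.05 and the levels differed at least 1.5-fold (log2 0.585). Kdm7a was called lower under saline (log2 fold change -0.76 ± 0.20 (SE), adjusted p 0.0153) but not under morphine (-0.67 ± 0.21, adjusted p 0.0506). Leaving out Ctrl + Saline replicate 3 moved the adjusted p under saline to 0.0533 with a fold as large (-0.79). Under morphine, leaving out Kdm7a-shRNA + Morphine replicate 1 or 4, or Ctrl + Morphine replicate 2, gave -0.80, -0.79 and -0.76 with adjusted p of 0.0431, 0.0282 and 0.0339. Over all 8 omissions it ran down to -0.47 (adjusted p up to 0.167), the value without Kdm7a-shRNA + Morphine replicate 3. Of the 9 alternatives 3 also called it under morphine: library size only (-0.77, adjusted p 0.0301), DESeq2 (-0.66, adjusted p 0.0354) and, chosen after seeing the data, omission of the 3 mice described next (-0.88, adjusted p 0.0195). With both treatments averaged, Kdm7a was called lower (-0.71 ± 0.15, adjusted p 0.00154).

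Markers of the labelled tissue were present: none of the 6 pyramidal neuron markers was at 0 in any mouse, and their summed level ran from 1528 to 3934 normalized CPM, with Nrgn the most abundant. On the second principal component of all tested entries, which held 13.0% of the variance, 3 mice stood apart from the others. Ctrl + Morphine replicate 2 scored 58.5, Kdm7a-shRNA + Morphine replicate 4 scored 54.7 and Kdm7a-shRNA + Saline replicate 4 scored 38.8, and the next highest mouse scored 18.8. The same 3 mice held the 3 highest Cnr1 levels of the 16, so results that rest on them are given with and without them.

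Of the 8 genes, 2 were called between Ctrl + Saline and Kdm7a-shRNA + Saline, Dagla and Abhd12, both higher. In that comparison 16.7% of the 18826 tested entries were called in either direction, and 7.43% were called higher. Among annotated genes 9.36% to 15.8% were called in either direction, by class of transcript length (classes given below). By adjusted p alone 3 of the 8 passed, all higher, and 9.69% of tested entries passed in that direction. At an unadjusted p under 0.05 it was 3 of the 8, against 34.7% of entries in either direction. The median log2 fold change of the 8 was 0.24, beside 0.01 over all tested entries and 0.10 over annotated genes. With libraries scaled by size only it was 0.11, beside -0.12 over all tested entries. All 8 passed the filter on low counts. Here and below, groups that lie wholly apart are described without the share of all tested entries that did so, which was not counted.

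Under morphine none of the 8 was called between Ctrl + Morphine and Kdm7a-shRNA + Morphine by edgeR, where 7.69% of tested entries were. Among annotated genes it was 3.02% to 6.88%, by class of transcript length. At an unadjusted p under 0.05 edgeR counted 3 members (Abhd6, Daglb and Abhd12), where 25.5% of tested entries passed, and DESeq2 called 0 and counted 3. The median of the 8 was 0.09, beside -0.0045 over all tested entries and 0.05 over annotated genes. With 1 mouse left out it ran from 0.017 to 0.19. With libraries scaled by size only it was -0.016, beside -0.11 over all tested entries. The knockdown comparisons under saline and under morphine share no mouse, and the interaction tests whether their effects differ. It was called for 0 of the 8 in edgeR, against 0.085% of tested entries, with 1 member (Dagla) at an unadjusted p under 0.05, as were 10.7% of entries. DESeq2 likewise called 0 and counted 1. The median interaction of the 8 was -0.20 (-0.29 to -0.12 with 1 mouse left out), beside 0.0067 over all tested entries.

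Averaged over both treatments, with equal weight, 0 of the 8 met both thresholds in edgeR, against 17.6% of tested entries. Among annotated genes it was 7.72% to 15.8%, by class of transcript length. Abhd12, Daglb and Dagla passed the adjusted p alone, all higher, as did 13.6% of entries in that direction. Over the 8 alternatives for the average, the adjusted p of Dagla ran up to 0.0664. At an unadjusted p under 0.05 edgeR and DESeq2 each counted 4 members, where 38.8% of tested entries passed in edgeR, and DESeq2 called 1, Abhd12. Over the alternatives, DESeq2 among them, 1458 to 5190 entries were called, against 3316 in the reported fit. This average uses the same mice as both knockdown comparisons and is no independent result.

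**Figure D1:**
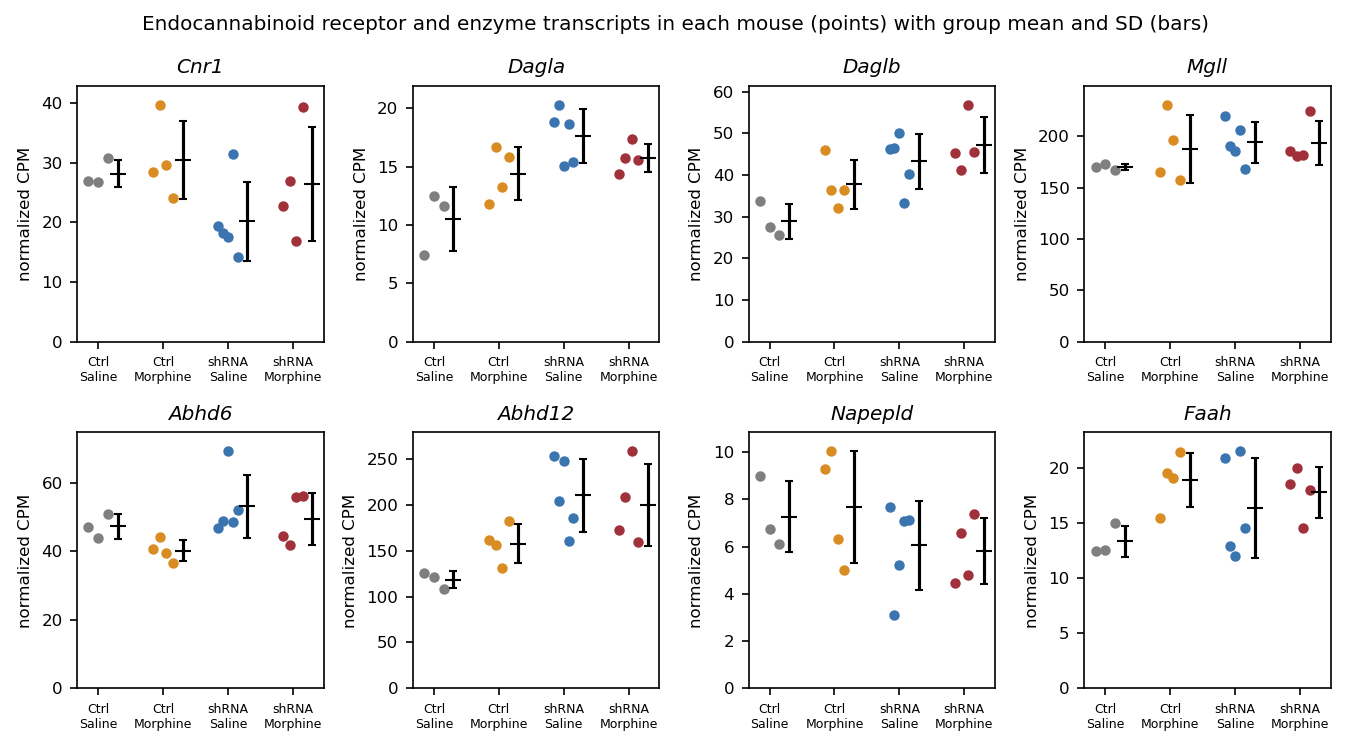
Normalized CPM (vertical axes, from 0) of the 8 genes in each of the 16 mice (points) by group, with the group mean and SD (bars). All 5 Kdm7a-shRNA + Saline mice lie above every Ctrl + Saline mouse for Dagla (15.05 to 20.3 against 7.40 to 12.5) and Abhd12 (160.3 to 253 against 108 to 126), and 4 of 5 lie below for Cnr1. The share of all tested entries with such separation was not counted.

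Cnr1 (ENSMUSG00000044288; GRCm38 chr4:33924593-33948831, plus strand) encodes the CB1 receptor, a G protein-coupled receptor of presynaptic terminals. Its level was 27.0, 26.7 and 30.9 normalized CPM in Ctrl + Saline, and 19.4, 18.3, 17.5, 31.5 and 14.3 in Kdm7a-shRNA + Saline. Of the knockdown mice 4 of 5 lay below every Ctrl + Saline mouse, and replicate 4 lay above them all. Under morphine Cnr1 was 28.5, 39.7, 29.7 and 24.1 with the control hairpin, and 22.7, 27.0, 16.8 and 39.3 with the Kdm7a hairpin, where the groups overlap. Replicate 4 of Kdm7a-shRNA + Saline, replicate 4 of Kdm7a-shRNA + Morphine and replicate 2 of Ctrl + Morphine are the mice that stood apart on the second principal component.

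Cnr1 was not called in any comparison that used all 16 mice. Its log2 fold change was -0.48 ± 0.25 (SE) under saline (95% interval -1.01 to 0.05, adjusted p 0.188) and -0.21 ± 0.25 under morphine (adjusted p 0.640), with an interaction of 0.27 ± 0.35 (adjusted p 0.850). With 1 mouse left out the value under morphine ran from -0.46 (without Kdm7a-shRNA + Morphine replicate 4) to -0.037 (without replicate 3 of that group), and the interaction from 0.016 (without Kdm7a-shRNA + Morphine replicate 4) to 0.49 (without Kdm7a-shRNA + Saline replicate 4), none of them called. Leaving out Kdm7a-shRNA + Saline replicate 4 alone gave -0.70 under saline with an adjusted p of 0.0353, which meets both thresholds. Without all 3 mice that stood apart, a choice made after seeing the data, Cnr1 was -0.70 ± 0.16 under saline (adjusted p 0.00654) and -0.31 under morphine (adjusted p 0.258). Over the other 8 alternatives with a fold change the value under saline stayed uncalled. Whether Cnr1 was called under saline thus turned on 1 mouse of 5.

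The window of 250 bases before the first annotated start of Cnr1 (GRCm38.p6 chr4:33924014-33924263, plus strand) is shown beside that of Daglb (chr5:143464243-143464492, plus strand). They are shown for the receptor gene and for a lipase gene that makes its ligand, neither of which was called with all 16 mice, and their sequences come from RefSeq. Of the 8 members 6 matched an entry, all but Dagla and Abhd12. Capitals mark each CG, the 2-letter motif that was searched and that reads the same on both strands.
Cnr1: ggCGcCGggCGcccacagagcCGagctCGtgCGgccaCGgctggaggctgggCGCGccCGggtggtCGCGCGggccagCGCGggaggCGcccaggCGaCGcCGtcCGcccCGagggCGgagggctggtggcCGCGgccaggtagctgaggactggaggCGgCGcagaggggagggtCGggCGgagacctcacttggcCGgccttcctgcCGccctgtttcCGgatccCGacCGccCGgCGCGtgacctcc
Daglb: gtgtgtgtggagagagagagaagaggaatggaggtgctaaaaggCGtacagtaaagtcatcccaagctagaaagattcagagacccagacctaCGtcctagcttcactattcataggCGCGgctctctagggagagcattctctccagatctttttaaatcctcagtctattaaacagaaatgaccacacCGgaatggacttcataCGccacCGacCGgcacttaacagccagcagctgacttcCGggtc
The Cnr1 window holds 36 CG and the Daglb window 9. They end 330 and 92 bases before the gene starts given here, which come from another annotation. RefSeq gives Cnr1 further starts, and the windows before those (chr4:33924394-33924643 and chr4:33926130-33926379) hold 28 and 5 CG. Of the 32851 windows of this length, 92.1% hold at least 1 CG, the median is 6, 2.58% hold at least as many as the printed Cnr1 window, 7.61% and 55.6% at least as many as the other Cnr1 windows, and 40.3% at least as many as Daglb. The windows of the other matched members hold 23 and 40 CG (Mgll), 18 and 22 (Abhd6), 21 (Napepld) and 9 (Faah). The counts describe the letters, and methylation was not measured.

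Dagla (ENSMUSG00000035735; GRCm38 chr19:10245265-10304877, minus strand) encodes the diacylglycerol lipase of the postsynaptic membrane, which makes 2-AG from diacylglycerol. Its level was 7.40, 12.5 and 11.7 normalized CPM in Ctrl + Saline, and 18.8, 20.3, 15.05, 18.7 and 15.4 in Kdm7a-shRNA + Saline. All 5 knockdown mice lay above all 3 control mice, and Ctrl + Saline replicate 1 was the lowest of the 16 mice. Dagla rose by a log2 of 0.74 ± 0.18 (SE; 95% interval 0.36 to 1.12, adjusted p 0.00888) under saline. Without Ctrl + Saline replicate 1 the value was 0.51 with an adjusted p of 0.0560, which meets neither threshold.

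Under morphine Dagla was 11.8, 16.6, 13.3 and 15.8 in Ctrl + Morphine, and 14.4, 15.7, 17.4 and 15.6 in Kdm7a-shRNA + Morphine. These groups overlap, with 1 of 4 knockdown mice above every control. The log2 fold change was 0.13 ± 0.17 (adjusted p 0.662), and the interaction was -0.60 ± 0.24 (unadjusted p 0.0235, adjusted p 0.362). When single mice were left out, the former ran from 0.048 (without Ctrl + Morphine replicate 1) to 0.21 (without replicate 2 of that group), and the latter from -0.76 to -0.36 (without Ctrl + Saline replicate 2 and 1). A difference of the Dagla effect between treatments was therefore not shown. Averaged over treatments Dagla stood at 0.44 ± 0.12 (adjusted p 0.0129), short of the fold threshold. Over 8 alternatives that average ran from 0.32 to 0.47, with an adjusted p up to 0.0664.

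Daglb (ENSMUSG00000039206; GRCm38 chr5:143464584-143505942, plus strand) encodes the second diacylglycerol lipase, which is also known from macrophages and microglia. Its level was 33.7, 27.4 and 25.7 normalized CPM in Ctrl + Saline, and 46.3, 46.5, 50.003 and 40.3 in replicates 1, 2, 3 and 5 of Kdm7a-shRNA + Saline, with 33.2 in replicate 4. So 4 of 5 knockdown mice lay above every control, and replicate 4 lay among them. The log2 fold change was 0.58 ± 0.16 (adjusted p 0.0179), just under the fold threshold of 0.585. Leaving out Kdm7a-shRNA + Saline replicate 4 (0.66, adjusted p 0.00656), replicate 5 (0.61, adjusted p 0.0260) or Ctrl + Saline replicate 1 (0.66, adjusted p 0.0189) took Daglb past both thresholds. Without Ctrl + Saline replicate 2 or 3 it passed neither threshold, and over all 8 omissions it ran from 0.48 to 0.66 (adjusted p 0.00656 to 0.109).

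Under morphine Daglb was 45.9, 36.5, 32.1 and 36.5 with the control hairpin, and 45.2, 41.1, 56.8 and 45.5 with the Kdm7a hairpin. The groups overlap: 1 of 4 knockdown mice exceeded every control, and Ctrl + Morphine replicate 1 lay above the other 3. The log2 fold change was 0.32 ± 0.15 (adjusted p 0.193), and the average over treatments was 0.45 ± 0.11 (adjusted p 0.00578). Exons of Daglb overlap those of Rac1 on the opposite strand over 2309 bases, and the sources used here do not state whether counting used strand. Whether reads of Daglb and Rac1 in that overlap were counted apart is therefore not known. Rac1 itself was 0.48 ± 0.14 (adjusted p 0.0273) under saline and -0.10 ± 0.14 (adjusted p 0.712) under morphine.

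Abhd12 (ENSMUSG00000032046; GRCm38 chr2:150832493-150904741, minus strand) encodes a membrane hydrolase of lysophosphatidylserine that also splits 2-AG. Its level was 126, 121 and 108 normalized CPM in Ctrl + Saline, and 253, 204.5, 247, 160.3 and 186 in Kdm7a-shRNA + Saline. All 5 knockdown mice lay above every control, with a wide spread among themselves. Abhd12 rose by a log2 of 0.83 ± 0.17 (SE; 95% interval 0.46 to 1.19, adjusted p 0.00392), and it was called with any 1 of the 8 mice left out (0.74 to 0.91). Under the 9 alternatives it ran from 0.69 to 0.91 and was called in all of them.

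Under morphine Abhd12 was 161, 156, 131 and 183 in Ctrl + Morphine, and 172, 209, 258 and 159.8 in Kdm7a-shRNA + Morphine. The groups overlap, and 2 of 4 knockdown mice lay above every control. The log2 fold change was 0.34 ± 0.16 (adjusted p 0.193), and the interaction was -0.48 ± 0.23 (adjusted p 0.475). Over the omissions of 1 mouse they ran from 0.19 (without Kdm7a-shRNA + Morphine replicate 3) to 0.43 and from -0.63 to -0.39, never called. The average over treatments was 0.58 ± 0.12 (adjusted p 0.00144), just under the fold threshold. It ran from 0.51 to 0.63 with 1 mouse left out and passed in 9 of 16 omissions, namely without Kdm7a-shRNA + Morphine replicate 1 or 4, Ctrl + Morphine replicate 1 or 4, Kdm7a-shRNA + Saline replicate 2, 4 or 5, or Ctrl + Saline replicate 1 or 2. Of the 9 mice with the Kdm7a hairpin, 6 lay above all 7 mice with the control hairpin.

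Mgll (ENSMUSG00000033174; GRCm38 chr6:88724412-88828360, plus strand) encodes monoacylglycerol lipase, the presynaptic enzyme that removes most 2-AG in brain. It varied least of the 8 across mice, from 157 to 230 normalized CPM, a ratio of 1.46 between the highest and lowest mouse. Its log2 fold change was 0.19 ± 0.13 (adjusted p 0.315) under saline and 0.04 ± 0.12 under morphine, where the 95% interval was -0.22 to 0.30. The sign under morphine reversed to -0.06 when libraries were scaled by size only, and it was below 0 without Kdm7a-shRNA + Morphine replicate 4 (-0.04) or Ctrl + Morphine replicate 1 (-0.01) or 4 (-0.03).

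Abhd6 (ENSMUSG00000025277; GRCm38 chr14:8002902-8056763, plus strand) encodes a postsynaptic hydrolase that takes 2-AG close to where it is made. It ran from 36.6 to 69.1 normalized CPM, and its highest mouse was Kdm7a-shRNA + Saline replicate 3. Under morphine 3 of 4 knockdown mice lay above every control, and the difference was 0.30 ± 0.14 on the log2 scale (adjusted p 0.183). Under saline it was 0.17 ± 0.14 (adjusted p 0.436), and 0.055 (adjusted p 0.819) without that highest mouse.

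Napepld (ENSMUSG00000044968; GRCm38 chr5:21662901-21701396, minus strand) encodes a phospholipase D that releases anandamide from its membrane precursor. It had the fewest reads, 27 to 94 per mouse, and ran from 3.11 to 10.03 normalized CPM with overlap between all groups. Its log2 fold changes of -0.26 ± 0.29 under saline (adjusted p 0.553) and -0.41 ± 0.28 under morphine (adjusted p 0.389) have 95% intervals of -0.86 to 0.34 and -0.99 to 0.18. With all 16 mice both intervals include a fall of 1.5-fold, and neither reaches a rise of that size. With 1 mouse left out the values ran from -0.39 to -0.096 under saline (without Ctrl + Saline replicate 3 and Kdm7a-shRNA + Saline replicate 2), and from -0.56 to -0.25 under morphine (without Ctrl + Morphine replicates 4 and 2).

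Faah (ENSMUSG00000034171; GRCm38 chr4:115967145-116017926, minus strand) encodes the amidase that ends anandamide signalling. Its level was 12.4, 12.6 and 14.97 normalized CPM in Ctrl + Saline, and 15.5, 19.5, 19.1 and 21.4 in Ctrl + Morphine. All 4 morphine mice lay above every saline mouse under the control hairpin. In Kdm7a-shRNA + Saline the values 20.9, 12.9, 11.97, 21.5 and 14.6 spread over the range of both control groups, and Kdm7a-shRNA + Morphine had 18.5, 20.02, 14.5 and 18.0. The knockdown log2 fold change was 0.30 ± 0.20 (adjusted p 0.303) under saline and -0.09 ± 0.19 (adjusted p 0.808) under morphine. Omitting 1 mouse moved it between 0.18 (without Kdm7a-shRNA + Saline replicate 4) and 0.39 under saline, and between -0.18 (without Ctrl + Morphine replicate 1) and -0.00017 (without Kdm7a-shRNA + Morphine replicate 3) under morphine.

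**Figure D2:**
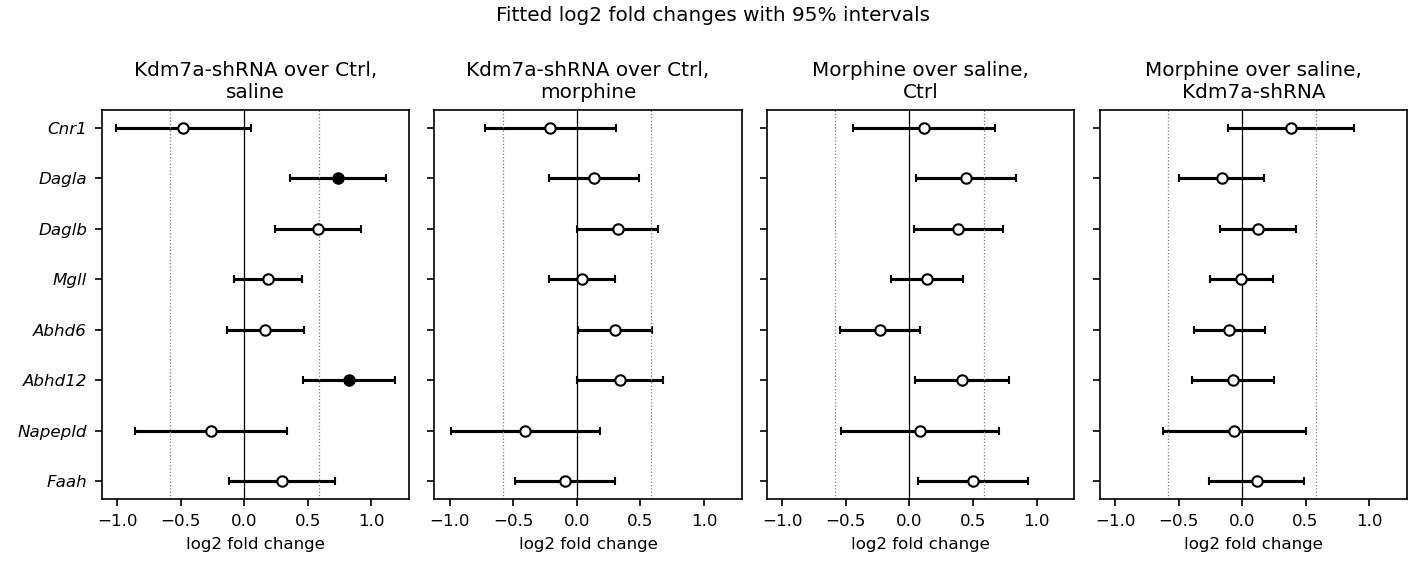
Log2 fold change (horizontal axes) of each gene in 4 comparisons, as points with 95% intervals from edgeR; filled points were called, and dotted lines mark the fold threshold of 1.5. Only Dagla (0.74) and Abhd12 (0.83) under saline are filled, while under the control hairpin the intervals of Faah, Dagla, Abhd12 and Daglb lie above 0 without being called. So do the knockdown intervals of Daglb under saline and, barely, of Daglb, Abhd6 and Abhd12 under morphine.

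The morphine comparisons ask what conditioning and withdrawal left behind under each hairpin. Between Ctrl + Saline and Ctrl + Morphine edgeR called 0 of the 8, and 0% of the 18826 tested entries. Without Ctrl + Saline replicate 1 it called 230 entries and still 0 of the 8. At an unadjusted p under 0.05 edgeR and DESeq2 each counted 4 members, where 11.7% of tested entries passed in edgeR, and DESeq2 called 0. In edgeR they were Faah (0.50 ± 0.21, adjusted p 0.340), Dagla (0.45 ± 0.19, adjusted p 0.346), Abhd12 (0.41 ± 0.18, adjusted p 0.366) and Daglb (0.39 ± 0.17, adjusted p 0.369). Without the low Ctrl + Saline replicate 1 the value of Dagla was 0.21 (0.21 to 0.60 over the 7 omissions). For Faah and Abhd12 all 4 morphine mice lay above all 3 saline mice, and for Dagla and Daglb 3 of 4 did. The share of all tested entries that separated in this way was not counted. Of the summed cell type markers given below, those of Cck and Vip interneurons (550 to 635 against 269 to 465 normalized CPM) and of striatum (115 to 146 against 68.0 to 90.3) also lay higher in all morphine mice. The sums of the other lists overlapped, and 0 markers of either list were called. Each of these 2 sums was mostly 1 gene. Cck was 462 to 555 in Ctrl + Morphine against 149 to 376 in Ctrl + Saline. Ppp1r1b, of the striatal list, was 84.2 to 119 against 43.4 to 64.5. Of the tested markers, 3 of 4 for Cck and Vip interneurons were positive, while 3 of 5 for striatum were negative (median log2 fold change -0.07). The part of these cells in the morphine values was not tested. The median of the 8 was 0.26, beside -0.01 over all tested entries and 0.04 over annotated genes. Dagla, Daglb and Abhd12 were thus highest in both Kdm7a-shRNA groups and lowest in Ctrl + Saline, with Ctrl + Morphine between them by group mean. The comparison with Ctrl + Morphine and that with Kdm7a-shRNA + Saline share the same 3 Ctrl + Saline mice, so a low value in those mice enters both.

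Between Kdm7a-shRNA + Saline and Kdm7a-shRNA + Morphine edgeR called 0 of the 8, against 0.00531% of tested entries. No member reached an unadjusted p under 0.05 in edgeR, where 7.02% of tested entries did, or in DESeq2, which called 0 as well. Cnr1 had the largest value, 0.38 ± 0.23 (95% interval -0.11 to 0.88, adjusted p 0.765), which ran from 0.13 without Kdm7a-shRNA + Morphine replicate 4 to 0.60 without Kdm7a-shRNA + Saline replicate 4. The other 7 lay between -0.16 and 0.13, and the median of the 8 was -0.03, beside -0.0049 over all tested entries.

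The group means of Dagla, Abhd12 and Cnr1 were ordered as follows. Dagla was 10.5 ± 2.73 (SD, n = 3) normalized CPM in Ctrl + Saline, 14.4 ± 2.25 (n = 4) in Ctrl + Morphine, 15.8 ± 1.21 (n = 4) in Kdm7a-shRNA + Morphine and 17.6 ± 2.31 (n = 5) in Kdm7a-shRNA + Saline. Abhd12 followed the same order, from 119 ± 9.25 over 158 ± 21.1 and 199.7 ± 44.2 to 210.2 ± 39.7. Cnr1 fell from 30.5 ± 6.60 in Ctrl + Morphine and 28.2 ± 2.32 in Ctrl + Saline to 26.5 ± 9.53 in Kdm7a-shRNA + Morphine and 20.2 ± 6.60 in Kdm7a-shRNA + Saline. Neighbours in these orders differ by less than the larger of their SDs, except Ctrl + Saline from Ctrl + Morphine for Dagla and Abhd12.

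Ratios within a mouse compare groups without the scaling of libraries, on reads that were not divided by transcript length and with no test. Daglb's share of the reads of both lipases was 73.2% ± 7.65 (SD, n = 3) in Ctrl + Saline and 70.8% ± 4.67 (n = 5) in Kdm7a-shRNA + Saline. Under morphine it was 72.2% ± 5.002 (n = 4) and 74.8% ± 1.85 (n = 4), and all groups overlap, which does not show that the proportion was kept. Mgll's share of the reads of the 3 hydrolases of 2-AG was 50.7% ± 0.996 in Ctrl + Saline, 48.5% ± 6.004 in Ctrl + Morphine, 42.7% ± 4.58 in Kdm7a-shRNA + Saline and 43.9% ± 6.11 in Kdm7a-shRNA + Morphine. The log2 ratio of Mgll to both lipases was 2.11 ± 0.06, 1.83 ± 0.33, 1.67 ± 0.20 and 1.62 ± 0.24 in the same order. Under saline all 5 knockdown mice, at 1.51 to 1.99, lay below the controls at 2.05 to 2.17. The log2 ratio of Faah to Napepld was 0.89 ± 0.41, 1.35 ± 0.61, 1.46 ± 0.39 and 1.64 ± 0.32, where all groups overlap.

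Across the 16 mice the members moved together in part, and these correlations of log2 normalized CPM describe mice that also share groups. Daglb and Abhd12 had r = 0.865 (0.703 after subtracting group means). Cnr1 and Abhd12 had r = -0.644 (-0.612 after), and Dagla and Abhd12 0.655 (0.0575 after). Cnr1 and Mgll had 0.366 (0.715 after).

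The annotated genes most like Cnr1 across the 16 mice were Slc4a10 (r = 0.944), Lrrc4c (0.935), Atcay (0.928), Necab1 (0.922) and Ppfia2 (0.921). After subtracting group means they were Slc4a10 (0.953), Dlgap2 (0.943), Lrrc4c (0.941), Hsp90aa1 (0.921) and Vsnl1 (0.918). For Abhd12 they were Uap1l1 (0.938), Slc25a39 (0.924), Snn (0.913), AC122413.2 (0.911) and Slc39a13 (0.905), and after subtraction Acer2 (0.878), Cdc16 (0.878), Depp1 (0.871), Dhrs13 (0.860) and Adam15 (0.851). For Dagla they were Stk40 (0.858), Susd1 (0.850), Utp14b (0.838), Bcar3 (0.831) and Unkl (0.823), and after subtraction Dnajc12 (0.897), Iqcd (0.842), Epb41l4b (0.833) and Dbnl (0.811). Slc4a10 led for Cnr1 with and without the group means, and Lrrc4c is in both of its lists, while for Abhd12 and for Dagla the genes named before and after subtraction have none in common.

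Microglial markers moved with these genes. All 5 (Csf1r, Cx3cr1, P2ry12, Tmem119 and C1qa) were in the table, none was at 0 in any mouse, and C1qa was the most abundant. Their summed level was 580.2, 479 and 547 normalized CPM in Ctrl + Saline, and 966, 1472, 2046, 709 and 1526 in Kdm7a-shRNA + Saline. It was 509.98, 273, 464 and 463 in Ctrl + Morphine, and 832, 701, 1866 and 482 in Kdm7a-shRNA + Morphine. Of the 5 markers 4 were called higher with knockdown under saline and 2 under morphine. The 5 mice with the highest sums were the 5 with the lowest Cnr1, and 4 of them were among the 5 highest for Abhd12 and for Daglb, and 3 for Dagla. The part of microglial RNA in the results for Abhd12, Daglb, Dagla and Cnr1 was not tested. In bulk tissue, fewer cells of a type and less RNA per cell cannot be told apart.

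**Figure D3:**
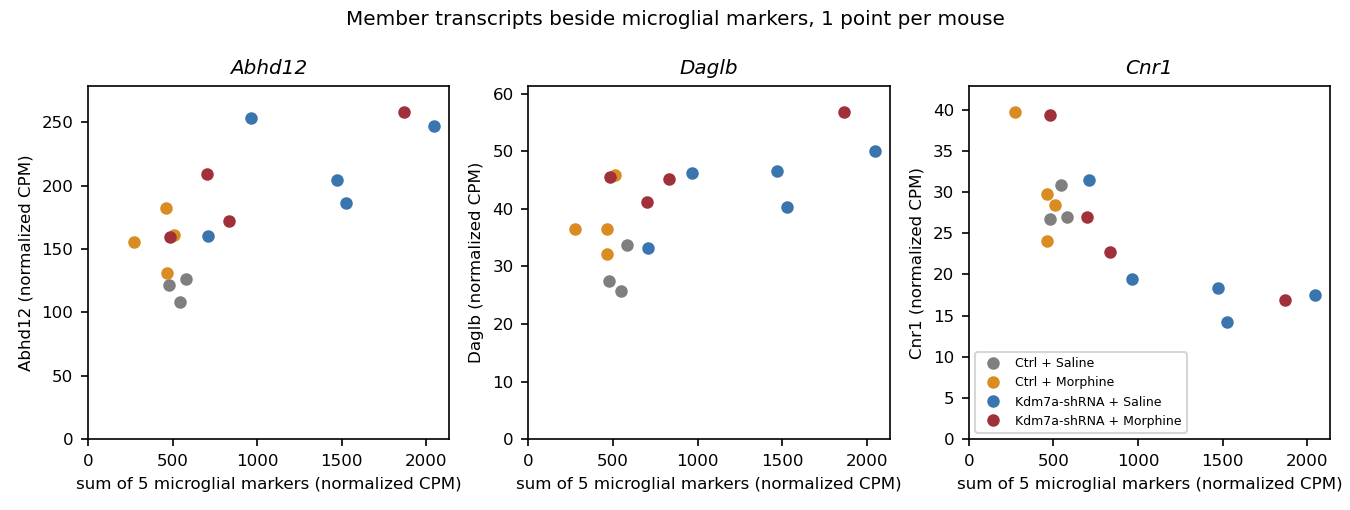
Normalized CPM of Abhd12, Daglb and Cnr1 (vertical axes) against the summed normalized CPM of 5 microglial markers (horizontal axes), 1 point per mouse, coloured by group. The 5 mice with sums from 966 to 2046 have the 5 lowest Cnr1 levels (14.3 to 19.4).

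Interneuron markers were read beside Cnr1. Of the list for Cck and Vip interneurons (Cck, Vip, Adarb2, Slc17a8 and Htr3a) 4 of 5 were tested, all 5 had reads in every mouse, and Cck was the most abundant. The sum was 465, 283 and 269 normalized CPM in Ctrl + Saline, and 640.3, 394, 388, 557 and 327 in Kdm7a-shRNA + Saline. It was 549.7, 582, 562 and 635 in Ctrl + Morphine, and 303.2, 509, 308 and 369.9 in Kdm7a-shRNA + Morphine. Vip was called lower under saline (-0.92 ± 0.21, adjusted p 0.00659), while Cck was 0.75 ± 0.28 (adjusted p 0.0685). Under morphine all 4 tested markers of this list had negative log2 fold changes (median -0.58), 3 of them at an unadjusted p under 0.05 and 0 called in edgeR. Of 5 markers of all interneurons (Gad1, Gad2, Slc32a1, Pvalb and Sst), Sst (-1.14) and Gad2 (-0.63) were called lower under saline, and Slc32a1 (1.10) and Pvalb (0.68) higher. All 5 had reads in every mouse, with Sst the most abundant. Their sum was 460.1, 409 and 440.6 normalized CPM in Ctrl + Saline, and 325.2, 325.5, 289, 381 and 308 in Kdm7a-shRNA + Saline. It was 471, 483, 440.8 and 476 in Ctrl + Morphine, and 428, 332, 334 and 416 in Kdm7a-shRNA + Morphine. The sum was below every control in all knockdown mice under either treatment, as was Sst alone. Under saline Sst was 80.0 to 152 with knockdown against 203 to 267, and under morphine 115 to 157 against 235 to 280. The sum therefore does not stand for all 5 markers, of which 2 were called higher under saline. The part of these cells in the Cnr1 values was not tested.

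The remaining lists gave, under saline, 2 of 6 astrocyte, 3 of 4 endothelial and 1 of 6 pyramidal markers (Nrgn, 1.48) called higher, and none called lower. The pyramidal markers had a median log2 fold change of -0.29, with 4 of 6 negative and 4 at an unadjusted p under 0.05 in either direction. Under morphine 5 of 6 were negative (median -0.34) and 0 were called in edgeR, with 1 at an unadjusted p under 0.05. In the average 5 of 6 were negative (median -0.36) and 1 was called, higher. The part of pyramidal neurons in the Cnr1 values was not tested. Of 6 oligodendrocyte, 2 oligodendrocyte precursor and 5 striatal markers, 0 were called in edgeR under saline, and at an unadjusted p under 0.05 the counts were 0, 0 and 1. The striatal sum was 115 to 146 normalized CPM in Ctrl + Morphine, above every Ctrl + Saline mouse (68.0 to 90.3) and every Kdm7a-shRNA + Morphine mouse (72.7 to 106). In Kdm7a-shRNA + Saline it was 60.2 to 154. Most of the striatal sum was Ppp1r1b, at 84.2 to 119 in Ctrl + Morphine, 43.4 to 64.5 in Ctrl + Saline and 52.9 to 74.8 in Kdm7a-shRNA + Morphine. The part of striatal tissue in the results was not tested. The oligodendrocyte markers were positive in 5 of 6 under saline (median log2 fold change 0.44) and in 6 of 6 under morphine (0.39). Their sum was 10165 ± 2706 normalized CPM (SD, n = 3) in Ctrl + Saline, 13933 ± 4943 (n = 5) in Kdm7a-shRNA + Saline, 9523 ± 2462 (n = 4) in Ctrl + Morphine and 14329 ± 4652 (n = 4) in Kdm7a-shRNA + Morphine, where the groups overlap. Under morphine 0 markers of these lists were called, with 2, 0 and 1 at an unadjusted p under 0.05, and in the average 1 oligodendrocyte marker was called higher. Under morphine 1 endothelial marker was called higher, and among all interneurons 1 was higher and 1 lower. All 6 astrocyte markers were positive under morphine (median log2 fold change 0.59), with 0 called in edgeR, 1 by adjusted p alone and 3 at an unadjusted p under 0.05. In the average 3 of 6 astrocyte and 2 of 4 endothelial markers were called higher. Astrocyte and endothelial markers had reads in every mouse, with Slc1a2 and Cldn5 the most abundant. The astrocyte sum was 891, 1089 and 1173 normalized CPM in Ctrl + Saline, 907, 1230.2, 1573, 1043 and 1471 in Kdm7a-shRNA + Saline, 964, 884, 973 and 838 in Ctrl + Morphine, and 1182, 1080, 1576 and 916 in Kdm7a-shRNA + Morphine. The endothelial sum was 59.2, 34.3 and 30.6 in Ctrl + Saline, 79.6, 78.6, 93.5, 62.7 and 80.4 in Kdm7a-shRNA + Saline, 55.2, 48.02, 63.7 and 48.04 in Ctrl + Morphine, and 63.7, 56.2, 96.2 and 46.0 in Kdm7a-shRNA + Morphine. Under saline the endothelial sums of all 5 knockdown mice lay above the controls, as for Dagla and Abhd12, and the part of these cells in the results was not tested.

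Transcript length moved with the knockdown effect across annotated genes. Under saline the median log2 fold change was 0.22 for genes whose longest annotated transcript is under 2 kb, 0.15 for 2 to 4 kb, 0.04 for 4 to 6 kb and -0.08 over 6 kb. Abhd12 (1999 bases) belongs to the shortest class and stood at 0.83. Dagla (5634 bases) at 0.74, Daglb (4877 bases) at 0.58, Faah (5537 bases) at 0.30 and Cnr1 (5807 bases) at -0.48 share the class with a median of 0.04. The only coding transcript of Faah has 3827 bases, which would place it in the class with a median of 0.15. That class holds Mgll (3991 bases) at 0.19, Abhd6 (2226 bases) at 0.17 and Napepld (3954 bases) at -0.26. The part of transcript length in these results was not tested.

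Beyond the 8, a list of 41 other pathway genes was read: receptors and partners, other routes to anandamide, other breakdown and carriage, and the receptors, phospholipases and G proteins around diacylglycerol and Cnr1. Of these 40 were in the table and 34 were tested. Under saline 4 of 34 were called, all higher, where 7.43% of all tested entries were called higher and 16.7% in either direction. The count was 9 without Kdm7a-shRNA + Saline replicate 4, 2 without Ctrl + Saline replicate 2 or 3, and 10 without the 3 mice that stood apart. With all 16 mice the called genes were Gde1 (1.71 ± 0.28, adjusted p 0.000858), Hspa2 (0.68, adjusted p 0.0179), Gnai2 (0.76, adjusted p 0.0200) and Naaa (0.80, adjusted p 0.0335). Gde1 encodes a phosphodiesterase of an alternative route to anandamide, and it was called with any 1 mouse left out. Naaa, the lysosomal amidase of anandamide and its relatives, lost its call without Ctrl + Saline replicate 1, 2 or 3 or Kdm7a-shRNA + Saline replicate 3 or 5 (0.62 to 0.97, adjusted p 0.0501 to 0.164). In 3 of the 9 alternatives Naaa also lost its call (adjusted p up to 0.0673), as Hspa2 did in 1 (0.55). Hspa2 lost it without Ctrl + Saline replicate 2 (0.44), and Gnai2, a G protein subunit that Cnr1 can act through, without Ctrl + Saline replicate 3 (0.49).

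Under morphine 3 of 34 were called, all higher, where 2.86% of all tested entries were called higher and 7.69% in either direction. They were Gnaq (0.92, adjusted p 0.0174), Abhd4 (0.90, adjusted p 0.0402) and Inpp5d (1.12, adjusted p 0.0485). Of the 9 alternatives, Abhd4 lost its call in 4 and Inpp5d in 5 (adjusted p up to 0.0751 and 0.0899), and Gnaq in none. Abhd4 is a lipase and Inpp5d a phosphatase of alternative anandamide routes, and Gnaq couples receptors to phospholipase C. Abhd4 and Inpp5d lost their calls without Kdm7a-shRNA + Morphine replicate 1 or 3 or any 1 of the 4 Ctrl + Morphine mice. Without Kdm7a-shRNA + Morphine replicate 3 they stood at 0.64 and 0.60 (adjusted p 0.164 and 0.246). In the other omissions that ended their calls the folds were about as large (Abhd4 0.77 to 1.01, Inpp5d 1.05 to 1.18). Gnaq lost its call without Kdm7a-shRNA + Morphine replicate 1 (0.80) or Ctrl + Morphine replicate 1 (0.85) or 4 (0.82).

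Averaged over treatments Gnai2 (0.64), Abhd4 (0.79), Inpp5d (1.01) and Gde1 (0.70) were called higher, with adjusted p of 0.00402, 0.00560, 0.00579 and 0.00877, where 7.68% of all tested entries were called higher and 17.6% in either direction. Microglial markers also rose, with 4 of 5 called higher under saline and in the average, and 2 under morphine. In the average 3 of 6 astrocyte markers were called higher. Kdm7a-shRNA + Morphine replicate 3, without which Inpp5d fell to 0.60 under morphine, had the highest microglial sum of its group (1866 normalized CPM). The part of these cells in the pathway results was not tested. Gnai2 fell short of the fold threshold without Kdm7a-shRNA + Morphine replicate 3 (0.56) or Ctrl + Saline replicate 3 (0.51), and Gde1 without Kdm7a-shRNA + Morphine replicate 2 (0.50). Gde1 was also the 1 gene of the 34 with a called interaction, -2.03 ± 0.37 (adjusted p 0.0472). Its level was 32.9, 21.7 and 21.9 normalized CPM in Ctrl + Saline, 77.8, 51.6, 44.2 and 77.1 in Ctrl + Morphine, 90.1, 73.5, 78.8, 93.9 and 80.8 in Kdm7a-shRNA + Saline, and 36.9, 86.8, 39.5 and 38.5 in Kdm7a-shRNA + Morphine. The interaction kept its call only without Kdm7a-shRNA + Morphine replicate 2, Ctrl + Morphine replicate 3 or Ctrl + Saline replicate 1. Without any 1 of the other 13 mice the adjusted p was 0.0535 to 0.197, with a fold about as large (-2.11 to -1.90).

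In the morphine comparisons 0 of 34 pathway genes were called by edgeR under either hairpin, with 2 and 3 at an unadjusted p under 0.05. DESeq2 called 1 under the control hairpin and 0 under the Kdm7a hairpin. The second cannabinoid receptor gene, Cnr2, known from immune cells, had 1 to 34 reads per mouse, and its average knockdown log2 fold change of 1.06 ± 0.42 (adjusted p 0.0712) was not called. Not tested for low counts were Gpr55, Gpr18, Trpv1, Hrasls5, Alox12 and Alox15.

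**Figure D4:**
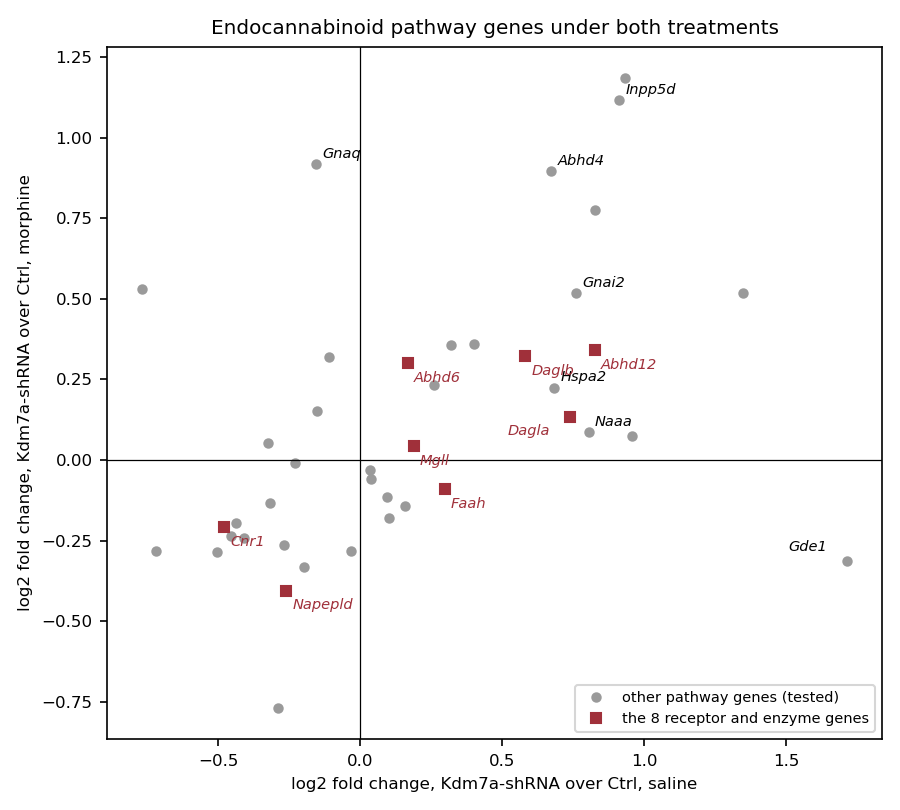
Log2 fold change with knockdown under saline (horizontal axis) and under morphine (vertical axis) for the 8 genes (squares) and the 34 tested pathway genes (circles), with names on the 8 and on pathway genes called under either treatment or in their average. Gde1 (1.71 and -0.31) lies far to the right and below 0, while Abhd12 (0.83 and 0.34), Daglb (0.58 and 0.32) and Dagla (0.74 and 0.13) lie above 0 on both axes.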

How the data were processed

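Nanopore cDNA libraries of 16 mPFC samples were used. The authors deposited read counts per gene and the CPM made from them; mouse build mm10 and the tools minimap2 and edgeR 3.8.6 are named in the submitters' processing notes, and the annotation release is not given in the sources used here. The deposited CPM equalled counts divided by their total to within 4.99e-06. Reads are PCR copies without molecular identifiers, so intervals cover counting error and spread between libraries, not molecules. Counts of all 26625 entries were filtered (filterByExpr, 18826 tested), scaled (TMM, 0.913 to 1.07) and fitted with a coefficient per group in edgeR 4.0.16 (R 4.3.3, limma 3.58.1), quasi-likelihood test, Benjamini-Hochberg adjustment over all tested entries. Levels for correlations are log2 CPM with a prior count of 0.5. Alternatives were RLE factors, library size only, no filter, at least 10 counts in every mouse, annotated genes only, only the compared groups, DESeq2 1.42.0, no fold threshold, a replicate block, and each mouse left out. All 8 members are named, with Kdm7a, called genes of the pathway list (up to 12 by adjusted p), and the 5 genes most correlated with Cnr1 and each called member; Cnr2, Rac1 and marker genes were named after their values were seen. Members and lists were chosen with earlier results of these data known. The knockdown comparison under saline was tested on simulated counts. A marker gene and a correlated gene are not reported here, and the microglial sum leaves the former out.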

Additional observations from a re-analysis of the deposited data

Results flagged for a closer look

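In all, 87 groups of 4 or 5 mice were examined for a far mouse, over 29 genes, marker sums and ratios of reads. Of these groups 3 had 1 mouse whose gap to the nearest other exceeded Dixon's 95% critical share of the group's range. Chance gives about 1 in 20. Abhd6 was 69.1 normalized CPM in Kdm7a-shRNA + Saline replicate 3, the nearest mouse being at 52.1 (gap 0.763 of the group's range). Mgll was 225 in Kdm7a-shRNA + Morphine replicate 4, the nearest mouse being at 185 (gap 0.896). Gde1 was 86.8 in Kdm7a-shRNA + Morphine replicate 2, the nearest mouse being at 39.5 (gap 0.948). The knockdown effect on Gde1 differed between treatments by a log2 of -2.03 (edgeR quasi-likelihood interaction, p 3.51e-05, adjusted p 0.0472). That call was lost in 13 of 16 omissions of 1 mouse (adjusted p up to 0.197) and in 3 of 8 alternatives.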

How the results depend on the processing

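Of 416 fold changes of the 8 genes under the alternatives, 400 kept their direction and their side of the thresholds, 8 newly passed, 8 reversed and 0 lost a call. With 1 mouse left out, 478 of 512 kept both, 13 newly passed, 1 lost a call and 20 reversed. Causes were not tested.

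The number of members called in the average over treatments, 0 with all settings as reported, was 1 (Abhd12) with RLE factors, with no filter and with DESeq2, 3 by adjusted p alone, and 1 without the 3 mice that stood apart, an alternative chosen after seeing the data. It ran from 0 to 1 with 1 mouse left out. Under saline the number was 2, ran from 2 to 4 with 1 mouse left out, and was 4 without the 3 mice (Cnr1, Dagla, Daglb and Abhd12). Calls among all entries moved too. Under saline they were 3151, 1424 to 3730 with 1 mouse left out and 1420 to 4149 over the alternatives. In the average they were 3316, with 2753 to 3738 and 1458 to 5190.

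With the replicate number as a block, 1 member was called in the average (Abhd12, 0.61) and Daglb passed under saline (0.65, adjusted p 0.0163). The block also turned Napepld between the knockdown groups to 0.031, and it changed no other call among the members. Same-numbered mice share only a number: of 21 pairs, 5 had deviations correlated over 0.1 (-0.0855 to 0.340), and 8 of 16 mice correlated best with their own number.

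Scaling by library size only moved the members' median from 0.175 to 0.055 in the average, and it moved the median of all tested entries by -0.11 under morphine, -0.13 under saline and -0.12 in the average, and turned Mgll under morphine to -0.058, Mgll between the knockdown groups to 0.026, and the averages of Mgll and Faah to -0.0012 and -0.014. Fitting only the compared groups turned Mgll between the knockdown groups to 0.0023. Over the 9 alternatives the knockdown values under saline ran from 0.029 to 0.20 for Abhd6, 0.056 to 0.23 for Mgll and 0.17 to 0.30 for Faah. Under morphine they ran from 0.026 to 0.22 for Dagla, 0.21 to 0.34 for Daglb, 0.19 to 0.32 for Abhd6 and -0.20 to -0.077 for Faah. Without the 3 mice, Cnr1 and Napepld between the control groups were -0.040 and -0.072, and the interaction of Kdm7a was -0.083.

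Leaving out 1 mouse reversed values near 0, with these ranges. Between the knockdown groups they were -0.087 to 0.043 for Mgll, -0.23 to 0.037 for Napepld, -0.16 to 0.013 for Abhd6, -0.22 to 0.021 for Abhd12 and -0.32 to 0.0043 for Kdm7a. Between the control groups they were -0.040 to 0.21 for Cnr1 and -0.073 to 0.24 for Napepld. Mgll under morphine ran from -0.037 to 0.16, and the interactions of Kdm7a and Napepld from -0.036 to 0.29 and from -0.31 to 0.010.

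Among all tested entries the calls were 1448 under morphine, but 697 with at least 10 counts in every mouse, 446 among annotated genes, 685 with the compared groups only and 2372 without the 3 mice. Under saline they were 3151, but 1852 and 1420 with the same filters, and in the average 3316, but 1525 and 1458, and 5190 by adjusted p alone. DESeq2 called 185 between the control groups, 20 between the knockdown groups and 217 for the interaction, against 0, 1 and 16 in edgeR. The interaction gave 34 calls with no filter, 6 with the block and 1 without the 3 mice. Between the knockdown groups there were 2 calls with at least 10 counts and among annotated genes, and 0 with the compared groups only, with the block and without the 3 mice. With 1 mouse left out, entries called under morphine were 913 and 568 without Kdm7a-shRNA + Morphine replicates 1 and 3, and 933, 750 and 578 without Ctrl + Morphine replicates 1, 3 and 4. Under saline they were 2083 and 1424 without Ctrl + Saline replicates 2 and 3. For the interaction they ran from 0 (without Ctrl + Saline replicate 2 or 3) to 266 (without replicate 1 of that group). They were 113 and 39 without Kdm7a-shRNA + Morphine replicate 2 and Ctrl + Morphine replicate 3, and 6 or fewer in the other 11 omissions.

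Calls in the pathway list, 3 under morphine and 4 under saline, were 1 under morphine in 4 alternatives, and 2 (library size only) and 10 (without the 3 mice) under saline, while the average went from 4 to 8 without the 3 mice. The interaction, 1 call, gave 0 with library size only, with the block and without the 3 mice, and DESeq2 called 1 between the control groups. With 1 mouse left out, pathway calls under saline were 9 without Kdm7a-shRNA + Saline replicate 4 and 2 without Ctrl + Saline replicate 2 or 3. Under morphine they were 0 without Kdm7a-shRNA + Morphine replicate 1 or Ctrl + Morphine replicate 1 or 4, and 1 without Kdm7a-shRNA + Morphine replicate 3 or Ctrl + Morphine replicate 2 or 3. The average gave 3 to 6 and the interaction 0 to 2.

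Groups held 3 to 5 mice, and Napepld, at 27 to 94 reads, had the widest errors of the 8 under saline and under morphine. Protein, enzyme activity and lipid levels were not measured.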
